A study of Homo sapiens with 10 samples.

Results

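RAB6D, a member of the RAB family of small GTPases, was measured in 10 clones of PC-3, a human cell line that was established from a bone metastasis of a prostate cancer. Members were all genes with a symbol of RAB, a number and an optional letter in the platform annotation, with pseudogenes and RAB regulators excluded. This rule found 1 gene, RAB6D, with 1 row, among 14884 genes with a named row. The RefSeq gene table holds 63 protein-coding genes with such symbols, and the other 62 were not analysed here because no row carried their names in the annotation used. The values therefore describe RAB6D and genes that act on or with RAB proteins, not the RAB family. The 5 CENPU clones (numbers 1, 4, 5, 7 and 13) carried CENPU, a centromere protein gene, in a p-Lenti vector, and the 5 control clones (numbers 1 to 5) carried the empty vector. All 10 had been selected with blasticidin and grown as separate clonal isolates, so a difference is one between clones, and each array stands for 1 clone. CENPU itself was at 9.37, 9.58, 8.70, 9.22 and 9.84 on the log2 scale in CENPU clones 1, 4, 5, 7 and 13, against 6.43, 5.78, 6.30, 6.24 and 6.56 in control clones 1 to 5, so all clones matched their labels. Among markers, KRT8, KRT18, KRT19 and HOXB13, genes of epithelial cells and of the prostate lineage, had means of 6.73 to 11.3 in CENPU clones and 6.76 to 10.9 in control clones, and HOXB13 was 0.42 higher in CENPU clones on the log2 scale (limma adjusted p = 0.0323). EPCAM, also epithelial, averaged 6.852 in CENPU clones and 5.999 in control clones and did not pass (limma adjusted p = 0.0839). KLK3 and KLK2, targets of the androgen receptor, averaged 5.57 and 5.59 in CENPU clones and 5.61 and 5.59 in control clones. The leukocyte list gene CD68 averaged 10.2 and 10.4 in CENPU and control clones, the endothelial genes PECAM1 and VWF 5.38 and 4.35 in CENPU clones and 5.11 and 4.53 in control clones, and the neuroendocrine genes CHGA, SYP and INSM1 5.13 to 7.46 in CENPU clones and 5.15 to 7.33 in control clones. None of these 6 genes passed in limma (adjusted p from 0.340 to 0.895), and the fibroblast list had 0 genes with a named row.

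RAB proteins switch between a GDP-bound form that a GDP dissociation inhibitor keeps in the cytosol and a GTP-bound form that sits on a membrane. Exchange factors load GTP, GTPase-activating proteins end the active state, and effectors such as motors and tethers read it. RAB6A, the best known protein of the RAB6 group, acts at the Golgi, where it recruits motor adaptors and tethers for transport to the endoplasmic reticulum and to the cell surface. RAB6C is a primate gene that arose from a copy of RAB6A messenger RNA. RAB6D is a close relative of RAB6C, and the function of RAB6D is little known.

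The sequences upstream of RAB6D and RAB6C are shown because they show how alike these genes are. Both lie on chromosome 2 of GRCh38.p14, and the windows come from RefSeq. RAB6D is on the minus strand, at chr2:131364169-131364406, and RAB6C on the plus strand, at chr2:129979416-129979653. Each stretch of 238 bases ends at the base before the annotated start of RAB6D or 12 bases further upstream of that of RAB6C, reads 5′ to 3′, and has in capitals the bases at which the 2 sequences differ.
RAB6D: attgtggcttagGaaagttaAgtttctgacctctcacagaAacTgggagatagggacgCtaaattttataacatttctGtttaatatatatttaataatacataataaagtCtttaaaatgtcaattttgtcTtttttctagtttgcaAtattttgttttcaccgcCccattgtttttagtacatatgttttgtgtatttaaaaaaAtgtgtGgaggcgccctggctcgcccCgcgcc
RAB6C: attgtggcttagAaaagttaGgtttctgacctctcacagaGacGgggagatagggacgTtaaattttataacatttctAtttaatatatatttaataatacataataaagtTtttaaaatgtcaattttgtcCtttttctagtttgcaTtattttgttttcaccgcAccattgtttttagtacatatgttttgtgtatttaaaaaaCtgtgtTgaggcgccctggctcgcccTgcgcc
The aligned stretches were the same at 225 of 238 bases, or 94.5%, without a gap. In the 50 bases from the RAB6D start on, the bases were the same at all 50 positions. RAB6D also shared a run of 45 bases with RAB6A in these windows, against 10 bases with RAB6B. Probe sequences were not used here, and whether transcripts of RAB6C or RAB6A contribute to the signal of the RAB6D row was not tested.

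RAB6D lay near the bottom of the array scale in every clone and no difference between the groups beyond the spread of the clones was found. It was at 2.75, 2.46, 2.62, 2.44 and 2.56 on the log2 scale in CENPU clones 1, 4, 5, 7 and 13. It was at 2.52, 2.57, 2.53, 2.18 and 2.31 in control clones 1 to 5. The groups overlapped, with 3 of 5 CENPU clones inside the range of the control clones and 3 of 5 control clones inside the range of the CENPU clones. CENPU clones 1 and 5 were above every control clone, and control clones 4 and 5 were below every CENPU clone. RAB6D averaged 2.57 ± 0.13 in CENPU clones and 2.42 ± 0.17 in control clones (SD, n = 5 each).

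The log2 difference of RAB6D was 0.14 (SE 0.10) and did not pass (limma adjusted p = 0.402 over all named rows). The 95% interval ran from -0.09 to 0.37 on the log2 scale, or from 0.942-fold to 1.29-fold. An exact two-sided permutation test over the clones gave p = 0.190, where 0.00794 is the smallest value that 252 assignments allow. The RAB genes called were therefore 0 of 1 in either direction. Of all 14884 genes, 5.31% were called higher and 4.79% lower at an adjusted p under 0.05. In 18 alternative fits the log2 differences were 0.08 to 0.27, with limma adjusted p from 0.164 to 0.678. All were higher in CENPU clones, but the fits share clones, so this is no separate evidence of a direction. A trend and robust prior, the mean of all rows of a gene and adjustment over all rows could not move the difference from 0.14.

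**Figure D1:**
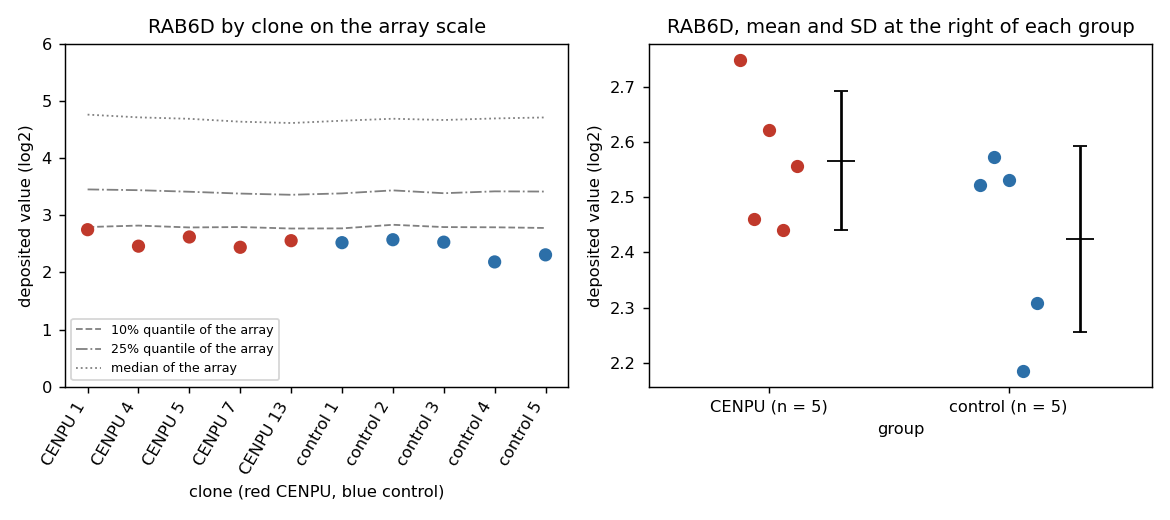
RAB6D by clone. Left, the deposited log2 value in each clone, with lines for the 10% quantile, the 25% quantile and the median of all rows of that array. Right, the same values by group, with the mean and SD of 5 clones beside the points. All 10 points lie under the 10% quantile of their array, and the groups overlap between 2.44 and 2.57.

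The RAB6D row was dim on every array. On each array RAB6D was under the 10% quantile of all 53617 rows, which was 2.77 to 2.84, while array medians were 4.62 to 4.76. Between 0.317% and 9.02% of the rows of an array were lower than RAB6D, with the lowest share in control clone 4 and the highest in CENPU clone 1. Whether RAB6D was transcribed in these clones cannot be read from rows this dim. Of 403 named genes with a mean under 2.77, the lowest of those 10% quantiles, 2 were called, or 0.496%. The SD of RAB6D, 0.13 in CENPU clones and 0.17 in control clones, compared with median SDs of 0.13 in both groups over these 403 genes. RAB6D has a genomic span of 3677 bases, against a median of 20711.5 bases over all named genes, and log2 differences went with span across the 14884 genes, which are not independent replicates (Spearman rho = 0.279). With the span trend removed from each array, RAB6D differed by 0.24 (limma adjusted p = 0.164).

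No paralogue of RAB6D could be set beside it, since no other gene of its number had a named row. Partners of the RAB6 group could be examined, with 9 genes taken from the lists by their known role after values had been seen. RIC1, which with RGP1 forms the exchange factor complex of RAB6A, averaged 5.44 ± 0.32 in CENPU clones and 4.89 ± 0.16 in control clones (SD, n = 5 each) and rose by a log2 difference of 0.55 (limma adjusted p = 0.0402). That call ended without any single clone other than CENPU 1 or CENPU 4 (limma adjusted p from 0.0550 to 0.0978), and without control 2, CENPU 7 and CENPU 13 RIC1 differed by 0.40. The RIC1 call held in 7 of 19 alternative fits. Removing the span trend and adjusting over all rows of the table each ended it (limma adjusted p = 0.0862 and 0.0552). RGP1 had a log2 difference of 0.19 and did not pass (limma adjusted p = 0.326). RABGAP1, a GTPase-activating protein for RAB6A, differed by 0.67 (limma adjusted p = 0.145). Among the effectors, the dynein adaptors BICD1 and BICD2 differed by -0.12 and -0.17, and the kinesin KIF20A by 0.70. None of these passed (limma adjusted p = 0.392, 0.377 and 0.148), and KIF20A had an SD of 0.74 in control clones. The coiled-coil Golgi protein GCC2, the phosphoinositide phosphatase OCRL and DENND5A, all of which bind RAB6, differed by 0.74, 0.74 and 0.56 (limma adjusted p = 0.0511, 0.0557 and 0.0546). Without control 2, CENPU 7 and CENPU 13 the differences were 0.22 for RGP1, 0.11 for RABGAP1, 0.35 for KIF20A, 0.38 for GCC2, 0.30 for OCRL, 0.28 for DENND5A, -0.22 for BICD1 and -0.38 for BICD2, and 0 of the 9 genes passed in limma (adjusted p from 0.0972 to 0.721). Thus 1 of 9 partner genes passed with all clones, higher in CENPU clones, where 5.31% of all genes were called higher. Since the 9 were chosen after values had been seen, their share cannot be read against that of all genes.

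The lists of genes that act on or with RAB proteins held 183 entries, of which 123 had a named row. The 123 include 54 effector genes, which read the active state of RAB proteins. Of these 123 genes, 15 rose, 5 fell and 103 did not pass, or 12.2% higher and 4.07% lower, beside 5.31% and 4.79% of all genes. The median log2 difference was 0.14 over the 123 genes and -0.02 over all named genes. The list genes have a median genomic span of 60210 bases. With the span trend removed 12 rose and 9 fell, or 9.76% and 7.32%, while 763 and 797 of all genes did, or 5.13% and 5.35%. The list median was then 0.0017, beside -0.0401 over all named genes. The part of the span trend in these counts was not tested. Across genes, span and the deviation of a clone from the mean of all clones had Spearman correlations of 0.334 in CENPU 13, 0.288 in CENPU 7 and -0.328 in control 2, the clones at the ends, and of -0.252 to 0.165 in the others. Leaving out these 3 clones left 1 higher and 0 lower, or 0.813% and 0%, and a median of 0.04. Of all genes, 209 were then higher and 261 lower, or 1.4% and 1.75%, so calls were lost over the whole table. The share of list genes called higher, which rests on 1 gene, was then not above that of all genes. In fits without 1 clone 0 to 6 were lower and 5 to 31 higher, with 31 higher without CENPU 1 and 5 higher without CENPU 7, control 2 or control 4. Of all genes, 9.83% were higher without CENPU 1, and 2.22%, 2.30% and 2.00% without CENPU 7, control 2 and control 4. The share of all genes called lower in the fits without 1 clone was 2.12% to 6.77%. Per clone, the median of the 123 genes relative to the control mean was 0.02 to 0.17 in CENPU clones and -0.09 to 0.11 in control clones, so the groups overlapped.

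**Figure D2:**
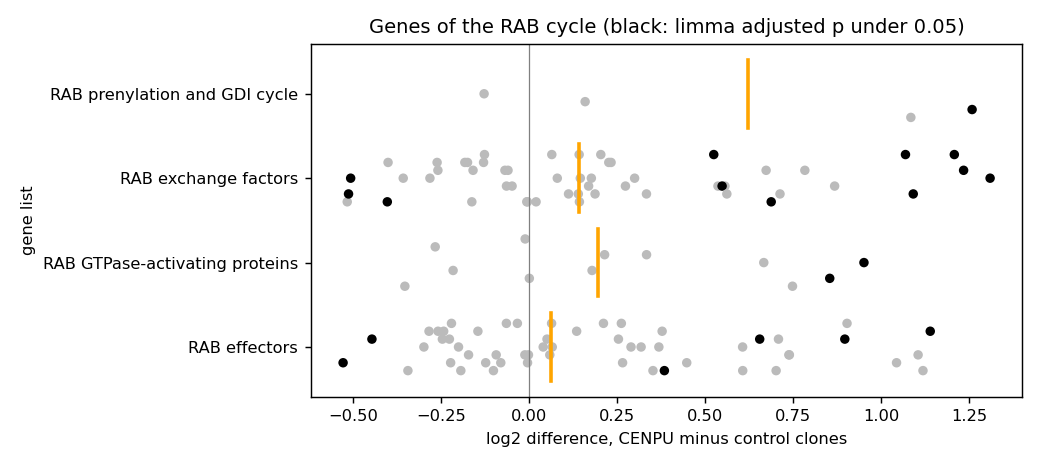
Log2 difference, CENPU minus control clones, of 123 genes that act on or with RAB proteins, by list. Each point is 1 gene, black where the limma adjusted p was under 0.05, and orange bars mark list medians, which are 0.62 for prenylation and GDI cycle genes, 0.14 for exchange factors, 0.20 for GTPase-activating proteins and 0.06 for effectors.

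GDI2, a GDP dissociation inhibitor that keeps RAB proteins soluble, was the 1 gene of 4 measured in the prenylation and GDI cycle list that rose. The list has 14 entries. The shares of 25% higher and 0% lower, beside 5.31% and 4.79% of all genes, rest on this 1 gene. GDI2 was at 8.55, 8.68, 9.23, 9.64 and 9.77 in CENPU clones 1, 4, 5, 7 and 13, against 8.43, 7.20, 7.97, 7.85 and 8.13 in control clones 1 to 5. All CENPU clones lay above all control clones. The log2 difference of GDI2 was 1.26 (SE 0.27, limma adjusted p = 0.0182), and 0.72 without the 3 clones named above (limma adjusted p = 0.0709).

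Of 53 measured exchange factor genes, 8 rose, 3 fell and 42 did not pass. These were 15.1% higher and 5.66% lower, beside 5.31% and 4.79% of all genes, and the lower shares were near each other. The 53 genes have a median genomic span of 54297 bases, beside 20711.5 over all named genes. RAB3GAP1 and RAB3GAP2 form a complex that loads RAB18 and ends the active state of RAB3 proteins. RAB3GAP1 was at 6.96, 7.29, 8.30, 7.97 and 8.12 in CENPU clones 1, 4, 5, 7 and 13, against 6.65, 5.98, 6.58, 6.37 and 6.52 in control clones 1 to 5. The groups did not overlap, and the log2 difference was 1.31 (limma adjusted p = 0.0104), or 0.99 without those 3 clones (limma adjusted p = 0.0754). RAB3GAP2 differed by 1.23 (limma adjusted p = 0.0280), with CENPU clone 1, at 5.99, under control clone 3, at 6.10. SBF2 and DENND4A, proteins with a DENN domain, rose by 1.09 and 1.07 (limma adjusted p = 0.0124 and 0.0249). DENND4B, a relative of DENND4A, fell by 0.40, SH3BP5L, of a family of RAB11 exchange factors, by 0.51, and MON1A, of the complex that loads RAB7, by 0.51 (limma adjusted p from 0.0280 to 0.0425).

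Of the 40 entries of the GTPase-activating protein list, 12 were measured, and of these 2 rose, 0 fell and 10 did not pass. The shares were 16.7% higher and 0% lower, beside 5.31% and 4.79% of all genes. The 12 genes have a median genomic span of 136254.5 bases, beside 20711.5 over all named genes. TBC1D31 rose by 0.85 and TBCK by 0.95 (limma adjusted p = 0.0187 and 0.0276). Both encode proteins with a TBC domain, and whether either ends the active state of a RAB protein was not tested. Of 54 measured effector genes, 4 rose, 2 fell and 48 did not pass, and the shares of 7.41% higher and 3.70% lower were near the 5.31% and 4.79% of all genes. GOLGA4, a tether of the trans-Golgi network, rose by 1.14, VPS41, a subunit of the HOPS tether of late endosomes, by 0.90, RUFY1, an effector of RAB4 on endosomes, by 0.65, and the autophagy protein ATG16L1, which binds RAB33B, by 0.38. RAB11FIP3, an effector of RAB11 in cell division, fell by 0.53, and MICALL2, an effector of RAB13 at cell junctions, by 0.45. The limma adjusted p of these 6 effectors ran from 0.0168 to 0.0437. Of the 16 genes named by rule in these lists, RUFY1 alone still passed without control 2, CENPU 7 and CENPU 13. The differences there were 57.6% to 106% of those in all clones, with a median of 67.9%. The 16 were picked by smallest p with all clones, and the clones left out lie at the ends of the span trend in these data. Smaller differences and lost calls were therefore likely beforehand, and that fit is no separate test of the 16 genes. Adjustment over all rows of the table left 13 of the 16 calls, and leaving out 1 clone left 5 to 15. The groups overlapped in DENND4A, RAB3GAP2, SH3BP5L, MON1A, TBCK, GOLGA4 and MICALL2, and did not overlap in the other 9 of the 16. Over all measured list genes the groups did not overlap in 13%, beside 9.73% of all named genes. Since the 16 were picked by smallest p, their share without overlap cannot be read against these.

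**Figure D3:**
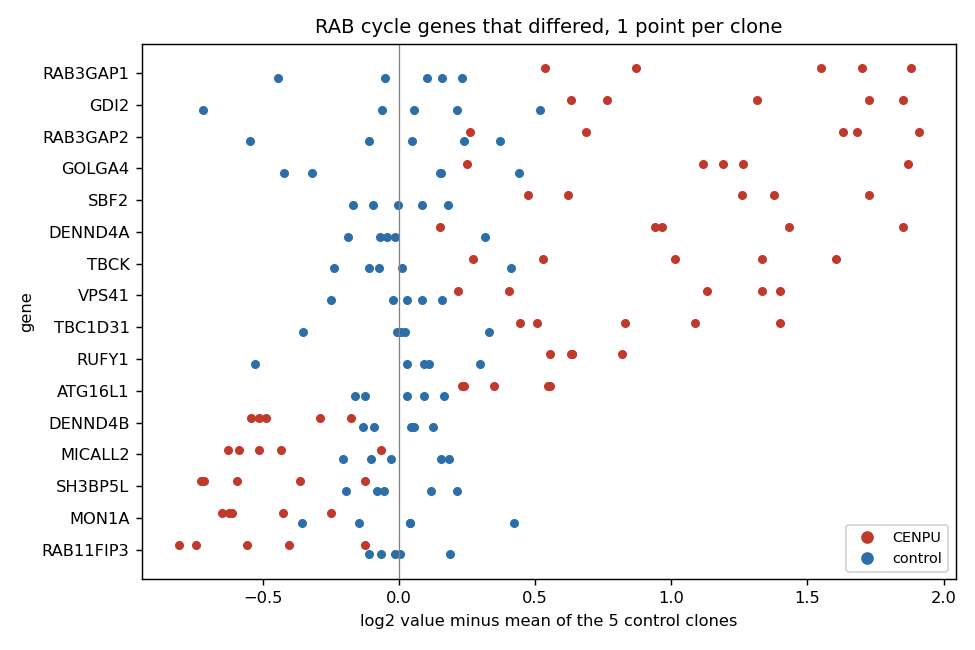
Log2 value minus the mean of the 5 control clones, for the 16 RAB cycle genes named by rule, 1 point per clone, ordered by log2 difference. In 11 genes the CENPU clones lie to the right of the control clones on average and in 5 to the left, and the points of the groups overlap in some, such as RAB3GAP2.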

How the data were processed

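RNA of the 10 clones was hybridised to 1-channel Affymetrix arrays after biotin labelling, per the labels' protocols. The deposited log2 values (1.65 to 15.0) had been made by the authors with Partek and RMA, per the submitters' processing notes. Versions, genome build and any step after RMA are not given in the sources used here, and their range was the basis for taking the scale as log2. Rows were named through the platform annotation, with symbols updated by gene ID to RefSeq (GRCh38.p14). Of 53617 rows, 16098 had a gene and 37519 had none. A gene with several rows was represented by the row of highest mean.

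Each named row was tested with limma 3.58.1 in R 4.3.3 (lmFit and eBayes, no covariates), with Benjamini-Hochberg adjustment over all 16098 rows. Genes with an adjusted p under 0.05 are called higher or lower. Replicates are separate clonal isolates per the labels, so the p-values rest on clone-to-clone spread, and 5 arrays a group limit the precision. The fit was tested on simulated data of 16098 rows, 200 of them changed, and recovered 88% at a log2 difference of 1. That value does not tell how well smaller differences, such as that of RAB6D, are found. The members and lists were chosen with earlier results of these data known. Genes named by rule were CENPU, the RAB gene and, per list, up to 4 genes in each direction by smallest p. The planned paralogue comparison was not made, because 1 RAB gene was measured. Clone numbers did not pair the clones, as the deviations of same-numbered clones correlated at -0.379, 0.104 and 0.0227.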

Additional observations from a re-analysis of the deposited data

How the results depend on the processing

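RAB6D passed in 0 of its 18 alternative fits, and the filter that left out rows with a mean under 5 removed it. CENPU passed in all 19 fits, with log2 differences of 2.81 to 3.24. The counts of RAB regulator and effector genes, 15 higher and 5 lower, depended on the clones: leaving out 1 clone gave 5 to 31 higher and 0 to 6 lower, with 31 higher without CENPU 1 and 5 higher without CENPU 7, control 2 or control 4. Calls over all genes moved too, with 1463 (9.83%) higher and 1008 (6.77%) lower without CENPU 1. Without control 4, 297 (2%) were higher and 316 (2.12%) lower, beside 791 (5.31%) and 713 (4.79%) with all clones. Without CENPU 5, CENPU 7, CENPU 13, control 2, control 4 or control 5 in turn, 0 of the list genes were lower. Without control 3 there was 1, and 2.12% to 2.79% of all genes were lower across these fits. Without control 2, CENPU 7 and CENPU 13 together, 1 was higher and 0 lower in a fit of 7 clones, or 0.813% and 0%. Of all genes, 209 and 261 were, or 1.4% and 1.75%. Removing the span trend gave 9 lower, or 7.32% beside 5.35% of all genes. Adjusting over all rows of the table gave 3 lower, or 2.44% beside 3.82% of all genes. With the clone number as a replicate block, 3 shared numbers carry the comparison. In that fit 0 of the list genes were higher and 0 lower, beside 22 and 33 of all genes, or 0.148% and 0.222%. RAB6D differed by 0.27 there. The numbers are names of separate clones, so this is not a paired design. Quantile normalization gave 17 higher and 5 lower, or 13.8% and 4.07%, beside 5.72% and 5.87% of all genes. Median centring gave 13 higher and 5 lower, or 10.6% and 4.07%, beside 4.91% and 6.12% of all genes. Across the 25 named list and partner genes, 335 alternative values stayed on the same side of the threshold. Another 124 lost the call and 14 gained one, the gains being in BICD1, KIF20A, DENND5A, OCRL and GCC2. The cause of these moves was not tested. The genes with gains, and RGP1, RABGAP1 and BICD2, did not pass with all clones. They had no call to lose, so the 335 overstate how steady the calls were. RAB6D was under the 10% quantile of every array.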
